A study of Sus scrofa with 36 samples.

Results

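ENSSSCG00000007978 is a pig gene with no symbol in the reference tables used here, and it is described in this section together with 7 red blood cell genes, HBB, HBM, ALAS2, AHSP, SLC4A1, EPB42 and GYPC. These 8 genes were chosen by rule from the 31907 gene identifiers counted: ENSSSCG00000007978 had the smallest p-value in the interaction of diet and birth weight and in both contrasts of VEG-IUGR over 36 libraries, and the others are known products of red cells. The values that chose ENSSSCG00000007978 are its differences between the groups, so those are given as a description with no test. The question was whether its level follows the amount of red cell RNA in the tissue.

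RNA was sequenced from snap-frozen cerebellum of 36 term-born piglets of a Danish landrace, Yorkshire and Duroc cross, which were of normal birth weight (NBW) or intrauterine growth restricted (IUGR). From 3 days of age and for about the next 3 weeks, all of them were fed formula, with fat from vegetable oil in the VEG groups and from cream of cows in the MILK groups. There were 9 piglets in each of the 4 groups formed by diet and birth weight (named VEG-NBW and so on), with 3 females and 6 males in MILK-NBW and 5 females and 4 males in every other group. IUGR piglets were picked on the farm by low weight and head shape at birth. The 36 piglets came from 6 litters, which are not in the labels, so litter could not be fitted. All p-values given here treat the piglets as independent.

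Mature red cells have lost their nucleus, but young ones still carry some of the RNA they were made with, and most of it encodes haemoglobin and the machinery that builds it. HBB encodes the beta chain of haemoglobin and HBM a minor chain of the alpha type. ALAS2 makes the first intermediate of heme in developing red cells, and AHSP binds free alpha chains and keeps them from precipitating. SLC4A1 (band 3), EPB42 (protein 4.2) and GYPC (glycophorin C) belong to the red cell membrane and its skeleton. Snap-frozen brain holds the blood left in its vessels, and in bulk tissue a lower number of red cells and less RNA per red cell cannot be told apart.

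On the pig assembly Sscrofa11.1, which is also the build the submitters named, RefSeq places HBB (ENSSSCG00000014725) on chromosome 9 at 4800683 to 4801941. HBM (ENSSSCG00000007977) lies on chromosome 3 at 41489312 to 41490110 and AHSP (ENSSSCG00000037878) on the same chromosome at 17059340 to 17060343. ALAS2 (ENSSSCG00000012347) lies on chromosome X at 47871519 to 47896041. SLC4A1 lies on chromosome 12 at 18957813 to 18975266, EPB42 on chromosome 1 at 128231863 to 128253696 and GYPC on chromosome 15 at 25576343 to 25606913. ENSSSCG00000007978 was not matched in the reference tables, so its position and product are not stated here. Globin genes resemble each other, and how reads that fit more than 1 of them were counted could shift HBB and HBM.

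Libraries held between 7936202 and 23027502 counts on genes. Piglet 210 (VEG-IUGR) stood apart from all other libraries, with the smallest total, counts on 6513 genes against at least 18635 elsewhere, 24.6% of reads not aligned against at most 4.16%, and 64.3% of reads not assigned to a gene. That last share was 43.6% in piglet 202 (VEG-NBW), 31.5% in piglet 213 (MILK-NBW) and 26.7 to 30.5% in the other 33. The study left out 3 libraries for low RNA integrity, 1 in every group but MILK-IUGR, without naming them. Cerebellar markers were abundant, with a median of 13084 counts for the granule neuron gene NEUROD1 and 7817 for the Purkinje cell gene PCP2 over the 35 libraries without piglet 210. Results are for those 35 libraries unless stated, and levels are in CPM, a gene's count scaled to a total of 1000000 counts on genes.

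ENSSSCG00000007978 was a low-abundance transcript in nearly every piglet and very high in 2 piglets of VEG-IUGR. Piglet 210 had 2386 counts, or 301 CPM (95% exact binomial interval 289 to 313, counting error only), and piglet 211 had 819 counts, or 37.7 CPM (35.2 to 40.4). The other 34 piglets held 3 to 88 counts, or 0.172 to 4.88 CPM. Piglet 211 had an ordinary library, with 21715123 counts, 19484 genes detected and 28.3% of reads not assigned.

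In VEG-NBW, ENSSSCG00000007978 ranged from 0.578 to 4.88 CPM with a median of 1.54 (n = 9). In VEG-IUGR it ranged from 0.801 to 301 CPM with a median of 2.72 (n = 9), and without piglets 210 and 211 the highest value was 4.12 and the median 2.54 (n = 7). The MILK-NBW piglets lay between 0.520 and 3.95 CPM around a median of 2.41 (n = 9). In MILK-IUGR the range was 0.172 to 2.58 CPM and the median 0.849 (n = 9). By median VEG-IUGR was the highest, then MILK-NBW, then VEG-NBW, with MILK-IUGR the lowest, and the ranges of all 4 groups overlapped, so no neighbours in this order stood apart, as the plot of levels in every piglet shows.

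**Figure D1:**
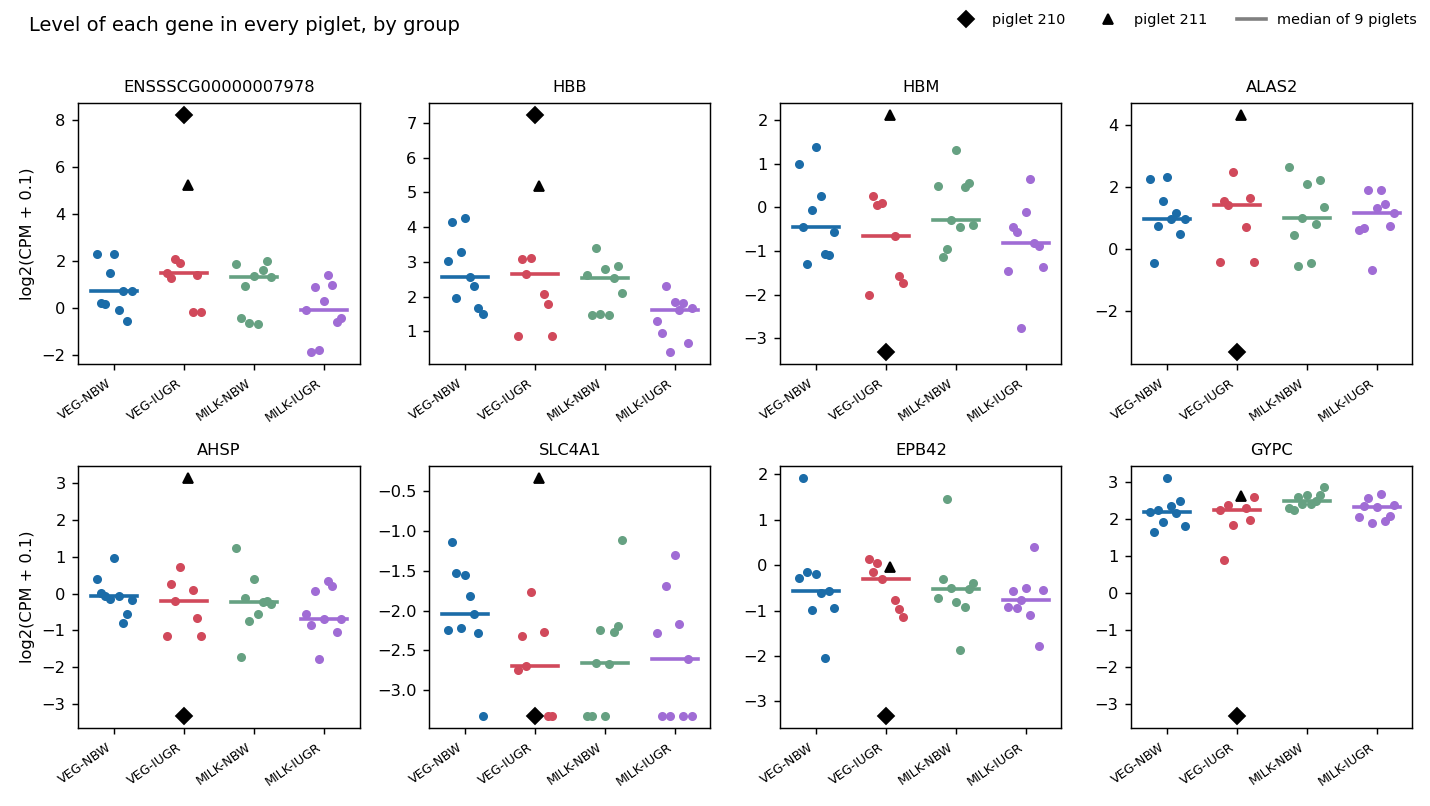
Levels of ENSSSCG00000007978 and the 7 red cell genes as log2(CPM + 0.1) (vertical axis) in each of 36 piglets, by group (horizontal axis), with a line at the median of the 9 piglets; the scale differs between panels. Piglet 210 (diamond) is the highest for ENSSSCG00000007978 and HBB and is at 0 counts for the other 6 genes, whereas piglet 211 (triangle) is the highest for HBM, ALAS2, AHSP and SLC4A1.

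HBB, the beta globin gene, was also highest in the same 2 piglets. It reached 152 CPM (143 to 160) in piglet 210 and 36.6 CPM (34.1 to 39.2) in piglet 211, against 1.21 to 19.2 CPM in the other 34. Its ranges were 2.70 to 19.2 CPM in VEG-NBW (median 5.78) and 1.70 to 152 in VEG-IUGR (median 6.16). They were 2.66 to 10.5 CPM in MILK-NBW (median 5.71) and 1.21 to 4.83 in MILK-IUGR (median 2.95). All 4 groups overlapped here too, with MILK-IUGR the lowest by median.

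ALAS2, the erythroid enzyme of heme synthesis, parted piglets 210 and 211. Piglet 211 had 437 counts, or 20.1 CPM (18.3 to 22.1), and the highest value in any other piglet was 6.15 CPM, in MILK-NBW. Piglet 210 had 0 counts, which at its depth allows up to 0.378 CPM (3 counts, counting error only). The lowest of the other 35 piglets was at 0.533 CPM. The group medians were 1.85 CPM in VEG-NBW, 2.58 in VEG-IUGR, 1.89 in MILK-NBW and 2.15 in MILK-IUGR.

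AHSP, the alpha chain stabiliser, and HBM, the minor globin, had the same extremes. AHSP was at 8.70 CPM (7.51 to 10.04) in piglet 211, at 0 counts in piglet 210 and between 0.194 and 2.26 CPM in the other 34, with group medians of 0.524 to 0.859. HBM was at 4.28 CPM (3.46 to 5.25) in piglet 211, at 0 counts in piglet 210 and between 0.0484 and 2.51 CPM in the other 34, with group medians of 0.466 to 0.721. For both AHSP and HBM the limit of 0.378 CPM in piglet 210 lies inside the range of the others, so a difference there was not detectable at this depth.

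Of the 3 membrane genes, EPB42 and GYPC did not share the high value of piglet 211, and SLC4A1 was barely detected. SLC4A1 had at most 15 counts in any library, was at 0 in 11 of 36 piglets and fell under the filter on low counts. EPB42 was highest in piglets 202 (3.67 CPM) and 213 (2.66 CPM), which are libraries with a high share of unassigned reads, and lay between 0.143 and 1.22 CPM in the other piglets except 210, where it had 0 counts. GYPC, which many tissues express, ranged from 1.75 to 8.50 CPM in 35 piglets and had 0 counts in piglet 210. Piglet 211, the highest for most other red cell genes, was at 0.875 CPM for EPB42, below 2 piglets of its group, and at 6.08 CPM for GYPC, the highest of its group but below 5 piglets of the others.

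The ratio of ENSSSCG00000007978 to HBB counts was 1.98 in piglet 210 and 1.03 in piglet 211, and it ran from 0.060 to 1.57 with a median of 0.341 in the other 34. ALAS2 gave 0.534 counts per count of ENSSSCG00000007978 in piglet 211 and between 0.236 and 8.67 in the other 34, with a median of 1.41. In piglet 210 this ratio was 0, and 3 counts of ALAS2 would have made it 0.00126. Thus ENSSSCG00000007978 and HBB were high together with HBM, ALAS2 and AHSP in piglet 211, and high with those 3 genes at 0 counts in piglet 210.

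Over piglets of the same group and sex, ENSSSCG00000007978 rose and fell with 4 of the 6 red cell genes that passed the filter. The measure is the slope of a gene's log2 level on the log2 CPM of ENSSSCG00000007978. It was fitted to all genes in edgeR's quasi-likelihood test with group and sex as covariates. The differences between groups therefore do not enter, but the high value of piglet 211, which contributed to them, does. Among 15519 genes tested, 5 had a slope above 0 at a Benjamini-Hochberg adjusted p under 0.05 (0.0322%) and 0 had a slope below 0. Of these 5 genes, 4 were ALAS2, AHSP, HBB and HBM. The median slope was 0.63 over the 6 red cell genes and -0.0015 over all genes.

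ALAS2 had a slope of 0.75 ± 0.08 (SE; adjusted p = 1.96e-07) and AHSP one of 0.66 ± 0.08 (adjusted p = 2.19e-06). HBM followed with 0.65 ± 0.11 (adjusted p = 0.00162) and HBB with 0.60 ± 0.09 (adjusted p = 0.000845). A slope of 1 would mean that both genes changed by the same factor. The fit took the level of ENSSSCG00000007978 as free of counting error, though its counts were low. The distance of a slope from 1 is therefore not interpreted. EPB42, at 0.08 ± 0.15 (adjusted p = 0.968), and GYPC, at 0.06 ± 0.05 (adjusted p = 0.903), did not pass. SLC4A1, fitted only without the filter, had 0.49 ± 0.20 (adjusted p = 0.741). The fifth gene called was ITIH4, a secreted protease inhibitor family member made mainly in liver, at 0.38 ± 0.07 (adjusted p = 0.0152), named after its value was seen.

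**Figure D2:**
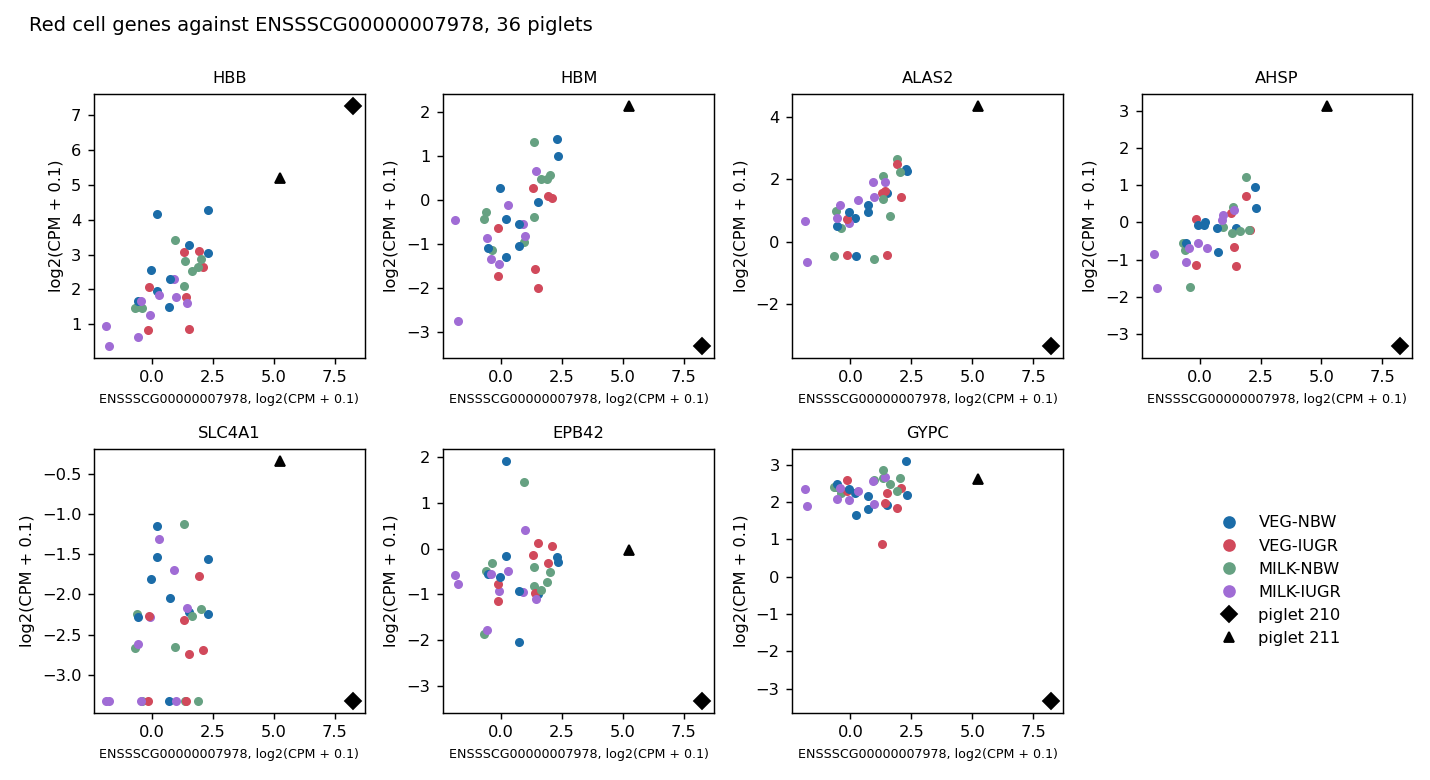
Level of each of the 7 red cell genes (vertical axis) against the level of ENSSSCG00000007978 (horizontal axis), both as log2(CPM + 0.1), with 1 point per piglet coloured by group. For HBB, HBM, ALAS2 and AHSP the 34 other points rise together toward piglet 211 (triangle), and piglet 210 (diamond) extends this line for HBB only.

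Part of this rested on piglet 211. Without it and piglet 210 (34 libraries, a set added after the data had been seen), 5 of 15592 genes had a called slope above 0 (0.0321%) and 1 a called slope below 0, and 2 of the 5 were red cell genes. ALAS2 kept a slope of 0.69 ± 0.10 (adjusted p = 0.000868) and AHSP 0.49 ± 0.10 (adjusted p = 0.0490). HBB, at 0.50 ± 0.12 (adjusted p = 0.177), and HBM, at 0.61 ± 0.14 (adjusted p = 0.158), no longer passed. With piglet 210 included (36 libraries), 1876 of 15514 genes had a called slope above 0 (12.1%) and 1833 a called slope below 0, and the same 4 red cell genes were among those above.

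Plain correlations of log2 CPM over the 35 libraries were computed for the 7 red cell genes. The differences between groups that chose ENSSSCG00000007978 enter these values, so they are a description with no test. HBB correlated with ENSSSCG00000007978 at Pearson r = 0.75 and Spearman rho = 0.71, and without the 2 libraries farthest from the HBB median, those of piglets 211 and 216, r was 0.62. Pearson r was 0.79 for AHSP, 0.76 for ALAS2 and 0.68 for HBM, and rho was 0.64, 0.74 and 0.62. Without the 2 farthest libraries of each gene, r stood at 0.62, 0.61 and 0.52. SLC4A1 had r = 0.44 and rho = 0.31, and its r was 0.22 without piglets 211 and 234. Without piglets 210 and 211 (34 libraries) its r was 0.24, so its value rests mostly on piglet 211. EPB42 had r = 0.21 and rho = 0.31, with r = 0.35 without piglets 202 and 213, and GYPC had r = 0.17 and rho = 0.16.

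In a test added after the data had been seen, the group means were removed from both genes and the piglets permuted within their groups. The group differences do not enter this test, though the high value of piglet 211 does. The correlation was then 0.80 for ALAS2 and 0.78 for AHSP (two-sided permutation p = 1e-05 for both, the smallest that 100000 draws can give), 0.74 for HBB (permutation p = 3e-05) and 0.72 for HBM (permutation p = 2e-05). It was 0.46 for SLC4A1 (permutation p = 0.0162), 0.27 for GYPC (permutation p = 0.189) and 0.15 for EPB42 (permutation p = 0.355). Without piglets 210 and 211 it was 0.72 for ALAS2, 0.67 for AHSP, 0.63 for HBB and 0.62 for HBM (permutation p from 2e-05 to 0.00024), and 0.25 for SLC4A1 (permutation p = 0.193).

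Ranked by r among all 15519 genes, AHSP, ALAS2, HBB and HBM held places 1 to 4, and EPB42 and GYPC places 2453 and 3404. The median r of all genes was 0.02 and 44 genes exceeded 0.5. The next genes in order were CACHD1 (r = 0.65), TRPM2 (0.64), WFDC1 (0.63), PRPSAP1 (0.62) and GGA2 (0.59). In the 34 libraries without piglets 210 and 211, AHSP (0.67), ALAS2 and HBB (0.65 each) again held the first 3 places, and HBM (0.59) was at place 13. Places 4 to 12 there went to IGFBP5 (0.63), GPR137 (0.63), PDGFRB (0.62), COL18A1 (0.62), PRPSAP1 (0.61), MFAP4 (0.61), CACHD1 (0.60), CD248 (0.60) and TRPM2 (0.60). These 34-library places were named after their values were seen. With all 36 libraries HBB stood first at 0.85, whereas ALAS2 was at 0.07, AHSP at 0.16 and HBM at 0.16, and the median of all genes was -0.59.

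**Figure D3:**
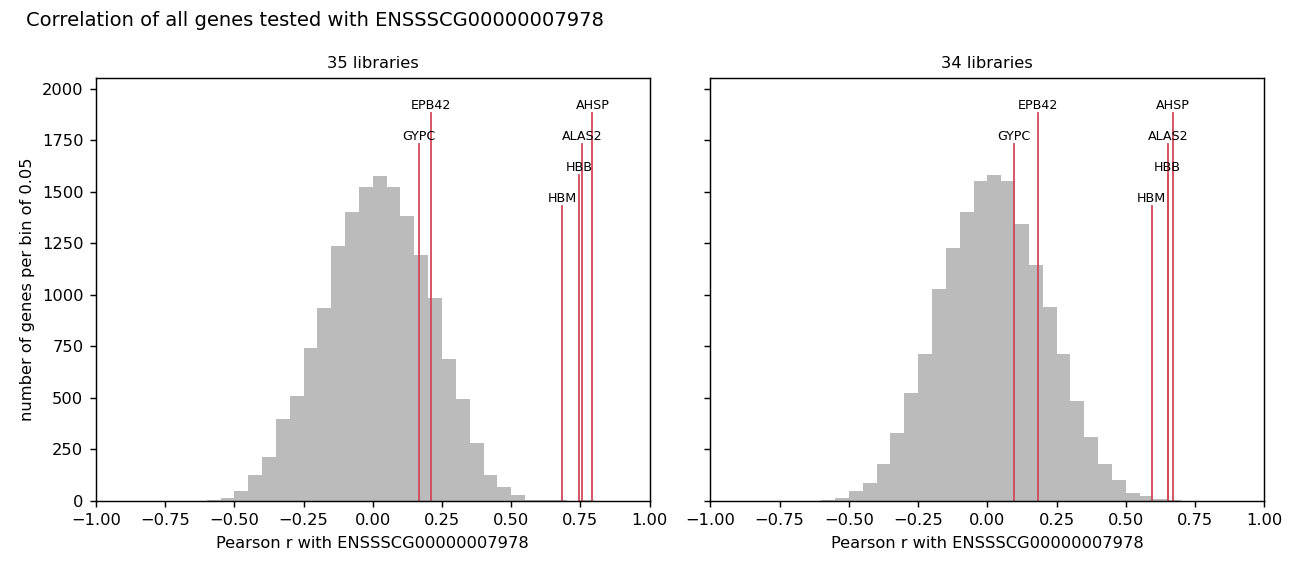
Number of genes (vertical axis, bins of 0.05) by their Pearson r of log2 CPM with ENSSSCG00000007978 (horizontal axis) over 35 libraries without piglet 210 and over 34 without piglets 210 and 211, with red lines at the red cell genes that passed the filter. HBM, HBB, ALAS2 and AHSP lie at 0.68 to 0.79 and at 0.59 to 0.67, at the upper end of the distribution, and EPB42 and GYPC lie in its body.

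Within single groups the correlation with HBB was 0.79 in MILK-IUGR (n = 9, exact permutation p = 0.0132), 0.80 in MILK-NBW (n = 9, exact permutation p = 0.0137), 0.83 in VEG-IUGR (n = 8, exact permutation p = 0.0161) and 0.54 in VEG-NBW (n = 9, exact permutation p = 0.132). Without piglet 211, r in VEG-IUGR was 0.50 (n = 7, exact permutation p = 0.262). Over the 4 groups r ran from 0.66 to 0.85 for ALAS2, from 0.68 to 0.89 for AHSP and from 0.62 to 0.78 for HBM. In VEG-IUGR without piglet 211 it was 0.58 for ALAS2, 0.29 for AHSP and 0.39 for HBM, against 0.84, 0.83 and 0.78 with it. EPB42 had r of -0.10 to 0.61 over the groups, and 0.73 in VEG-IUGR without piglet 211. GYPC had r of 0.17 to 0.46, and -0.33 in VEG-IUGR without piglet 211, and SLC4A1 had r of -0.06 to 0.81, and 0.28 there.

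The wider lists of blood and vessel genes had few called members. Of 13 listed globin genes 5 were found by symbol and 4 passed the filter, and besides HBB and HBM these were HBQ1 (slope 0.12 ± 0.06, adjusted p = 0.771) and neuroglobin, NGB, a globin of neurons (0.05 ± 0.06, adjusted p = 0.943). HBZ, the embryonic alpha-type globin, had at most 2 counts. The alpha chain genes HBA, HBA1 and HBA2 were not matched by symbol, so no level is given under those names. In heme synthesis ALAS2 was the only 1 of 11 genes called, in the erythroid program AHSP was the only 1 of 8, and in the red cell membrane list 0 of 11 were called. The median slopes of these 3 lists were 0.01, 0.02 and 0.00. In the clearance of heme and haemoglobin 0 of 6 genes were called.

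For other blood cells, 0 of 7 platelet genes, 0 of 2 neutrophil genes and 0 of 5 lymphocyte genes were called, with median slopes of -0.0037, 0.06 and -0.03. The lists for brain endothelium (0 of 10 called, median slope 0.03) and for cerebellum (0 of 16, -0.01) did not pass either. Mural cell genes had a median slope of 0.11 with 0 of 8 called, and those of contractile cells were the highest among them, with MYH11 at 0.30 ± 0.06 (adjusted p = 0.0508, and 0.0348 without the filter on low counts) and TAGLN at 0.22 ± 0.05 (adjusted p = 0.0950). Choroid plexus and meningeal genes had a median slope of 0.21 with 0 of 7 called, among them TTR at 0.61 ± 0.23 (adjusted p = 0.684). These genes were picked after their values were seen. The summed level of the mural list was 144 to 288 CPM in the 35 libraries and 0 in piglet 210, and that of the choroid plexus and meningeal list was 181.8 to 2177 CPM over 36 libraries. Their part in the slopes of the red cell genes was not tested.

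In piglet 210 the absence of counts was not particular to the 6 red cell genes. Of all 31907 gene identifiers, 6513 had counts in piglet 210, against 18635 to 20793 in the other libraries. The 10 platelet, 6 neutrophil and 8 mural cell genes found by symbol were all at 0 in piglet 210, as were 13 of 16 red cell membrane genes and 5 of 16 cerebellar genes. So were 12 of 15 erythroid program, 10 of 11 lymphocyte, 5 of 10 brain endothelium and 4 of 7 heme clearance genes. In the other libraries 1 to 3 platelet, 0 to 4 neutrophil and 1 to 4 red cell membrane genes were at 0. The summed level of the heme clearance list was 173 to 255 CPM in the others and 902 CPM in piglet 210. HBQ1, a theta globin gene, had 1224 counts there, or 154 CPM (146 to 163), against 2.54 to 8.72 CPM in the other 35 piglets. RefSeq places HBQ1 on chromosome 3 at 41478282 to 41480152, overlapping NPRL3 at 41478465 to 41540719, so without a stated strand setting their reads cannot be told apart. NPRL3 was at 95.1 CPM (88.5 to 102) in piglet 210 and at 20.5 to 55.3 CPM in the others.

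Between diets and birth weights, the red cell genes showed no difference past the threshold. In edgeR's quasi-likelihood test with sex as a covariate, 0 of the 6 genes and 0 of 15519 genes (0%) were called for diet, for birth weight, for their interaction and for each of the 4 contrasts between groups. ENSSSCG00000007978 itself was left out of all counts of genes tested or called. At an unadjusted p under 0.05 there were 407 genes for diet, 643 for birth weight, 728 for the interaction, 785 for VEG-IUGR against VEG-NBW, 538 for MILK-IUGR against MILK-NBW, 1076 for MILK-NBW against VEG-NBW and 287 for MILK-IUGR against VEG-IUGR. DESeq2 also called 0 genes in each, and limma voom called 1 in each of MILK-IUGR against MILK-NBW and MILK-NBW against VEG-NBW, neither of them a red cell gene. Between males and females, 24 of 15519 genes were called (0.155%), led by ENSSSCG00000038249 and ENSSSCG00000027046, and 0 of the 6 red cell genes.

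The contrast with most red cell genes under an unadjusted p of 0.05 was MILK-IUGR against VEG-IUGR, with 3 of 6 against 287 of 15519 over all genes. Diet had 2 of 6 against 407 of 15519, and each other contrast of diet and birth weight had 0 of 6. MILK-IUGR against VEG-IUGR was picked after its values were seen, and it helped choose ENSSSCG00000007978. There HBB differed by -1.63 ± 0.49 on the log2 scale (unadjusted p = 0.00224), AHSP by -1.44 ± 0.51 (unadjusted p = 0.00783) and ALAS2 by -1.08 ± 0.53 (unadjusted p = 0.0482). The adjusted p was 0.99996 for each. For HBB the lowest unadjusted p over the 7 contrasts, in another of them, was 0.00197 in the same edgeR test. In MILK-IUGR against VEG-IUGR the median over the 6 genes was -0.99, against 0.00 over all genes. Without piglet 211 the differences were -0.80 ± 0.41, -0.27 ± 0.38 and -0.06 ± 0.45 and the median -0.17. For VEG-IUGR against VEG-NBW, ALAS2 was at 0.92 ± 0.52 and AHSP at 0.93 ± 0.49 (adjusted p = 0.787 for both), and without piglet 211 they were at -0.14 ± 0.45 and -0.29 ± 0.37.

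The differences of ENSSSCG00000007978 between groups, which chose it and are given with no test, shrank as piglets 210 and 211 were left out. VEG-IUGR against VEG-NBW was 3.98 ± 0.94 on the log2 scale in 36 libraries, 1.48 ± 0.61 in 35 and 0.18 ± 0.49 in 34. MILK-IUGR against VEG-IUGR, which shares the VEG-IUGR piglets, was -4.99 ± 0.98, -2.45 ± 0.64 and -1.16 ± 0.51. The interaction of diet and birth weight was -5.06 ± 1.26, -2.31 ± 0.90 and -1.12 ± 0.69. In the contrasts that hold no VEG-IUGR piglet, MILK-IUGR against MILK-NBW was -1.08 ± 0.90, -0.83 ± 0.63 and -0.94 ± 0.49, and MILK-NBW against VEG-NBW was 0.08 ± 0.86, -0.14 ± 0.61 and -0.04 ± 0.47.

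**Figure D4:**
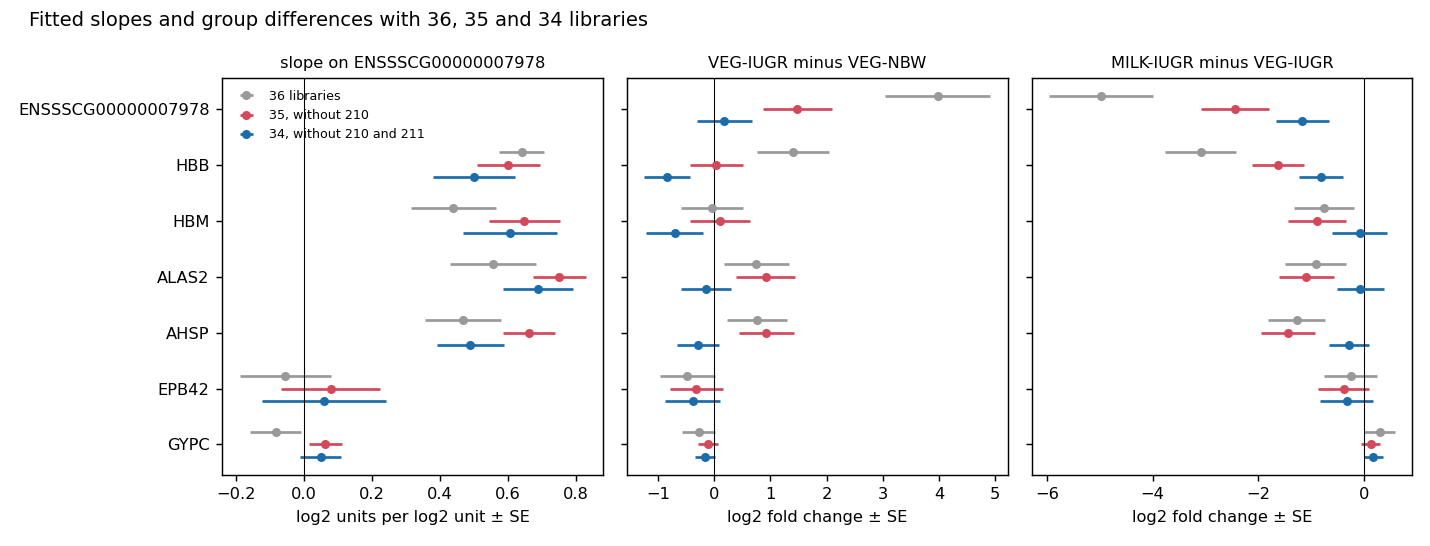
Slope on ENSSSCG00000007978 and log2 fold change in 2 contrasts of VEG-IUGR (horizontal axes, ± SE) for ENSSSCG00000007978 and the 6 red cell genes that passed the filter, fitted to 36, 35 and 34 libraries. The slopes of HBB, HBM, ALAS2 and AHSP stay between 0.44 and 0.75, whereas the fold change of ENSSSCG00000007978 for VEG-IUGR minus VEG-NBW goes from 3.98 to 0.18.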

How the data were processed

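RNA-seq reads from the cerebellum of 36 piglets were turned by the authors into 1 file of deposited raw counts per gene and piglet. The submitters' processing notes name Trim Galore, HISAT2, HTSeq, DESeq2 and Sscrofa11.1, and versions, annotation release and strand setting are not given in the sources used here. Rows for unassigned reads (26.7 to 64.3% of each file) were left out. Of 31907 identifiers, 15029 had a symbol.

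The counts were fitted in edgeR 4.0.16 (R 4.3.3; TMM, filterByExpr with a minimum count of 10, Benjamini-Hochberg threshold 0.05) over 35 libraries, without piglet 210. SE is the log2 change over the root of F. Correlations used log2 CPM with a prior count of 2 and permutations in NumPy 2.4.6, and exact intervals SciPy 1.17.1. Alternatives were DESeq2 1.42.0, limma 3.58.1 voom, other size factors, no filter, no sex term and other library sets. The fitting code was checked on simulated data.

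Members, gene lists and the set without piglets 202, 210 and 213 were chosen with earlier results of these data known. Genes named are the 8 members, measured globins, called genes of each list or contrast (at most 3) and the 5 other genes of highest r. Genes said to be picked or named after their values were seen fall outside this rule. Nothing in the labels says more on how piglets of a group were related, so p-values measure the spread between these samples.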

Additional observations from a re-analysis of the deposited data

Results flagged for a closer look

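In each group of 9 piglets, the highest and the lowest log2 level of each of the 8 genes was compared with the rest of the group, in 32 tests of which chance alone would flag about 1 in 20, and 6 were flagged as standing far from the others. In VEG-IUGR, piglet 210 was the lowest for EPB42 and for GYPC, at 0 CPM for both. EPB42 was far above the rest in piglet 202 of VEG-NBW, at 3.67 CPM, and in piglet 213 of MILK-NBW, at 2.66 CPM, the other libraries with a raised share of unassigned reads. ALAS2 was far below the rest of MILK-IUGR in piglet 225, at 0.533 CPM. SLC4A1 was far above the rest of MILK-NBW in piglet 234, at 0.361 CPM, which is 6 counts. The part of RNA quality in these values was not tested.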

How the results depend on the processing

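Over all alternatives, 70 of 71 counts of red cell genes called and 64 of 71 counts of all genes called stayed within 1.5 times the reported count. The reported count of red cell genes was 0 for everything but the slope, so most of these agreements are 0 against 0. The count of red cell genes called for their slope on ENSSSCG00000007978 was 2 in place of 4 without piglets 210 and 211, a set added after seeing the data. The count of all genes called for it was 5 and became 3709 with piglet 210, 10 without piglets 202, 210 and 213, 9 without the filter on low counts, 16 in DESeq2 and 92 in limma voom. limma voom called 1 gene for MILK-IUGR against MILK-NBW and 1 for MILK-NBW against VEG-NBW in place of 0. The cause was not tested. The correlation with HBB ran from 0.65 to 0.85, and was 0.74 with the group means removed.

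Some values changed sign, and of these no slope or log2 difference of a red cell gene was past the threshold in either fit. With piglet 210, the slopes of EPB42 and GYPC were -0.055 and -0.084, their correlations with ENSSSCG00000007978 -0.22 and -0.58, the interaction of GYPC 0.13, and HBM in VEG-IUGR against VEG-NBW -0.034. Without piglets 210 and 211, VEG-IUGR against VEG-NBW was -0.83 for HBB, -0.71 for HBM, -0.14 for ALAS2 and -0.29 for AHSP, and the effect of diet was 0.0015 for HBM and 0.022 for ALAS2. In limma voom HBM was at 0.14 for diet and -0.25 for VEG-IUGR against VEG-NBW, EPB42 at 0.37 there and GYPC at 0.014 for the interaction. EPB42 was at 0.37 in that contrast without piglets 202, 210 and 213 too. For ENSSSCG00000007978, given with no test, MILK-NBW against VEG-NBW was 0.075 with piglet 210 and 0.10 in limma voom. Litter, a random effect in the mixed models of the study, is not in the labels, so no analysis paired by litter was possible. Depth limits SLC4A1 most. At the depth of piglet 210, 0 counts allow up to 0.378 CPM (3 counts, counting error only). That is below the lowest value in the 35 libraries for ALAS2 (0.533 CPM) and GYPC (1.75 CPM). For HBM, AHSP, SLC4A1 and EPB42 it lies inside their range. The mural cell list, at 144 to 288 CPM in the 35 libraries, was also at 0 in piglet 210. The cause of these zero counts was not tested.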

Other observations

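The correlation of ENSSSCG00000007978 with the red cell genes was also computed within each sex, as a description into which the differences between groups enter. Over 17 females r was 0.60 for HBB, 0.77 for ALAS2, 0.70 for AHSP and 0.56 for HBM, and 0.13 for SLC4A1, -0.03 for EPB42 and -0.26 for GYPC. Over 18 males r was 0.82 for HBB, 0.79 for ALAS2, 0.85 for AHSP and 0.74 for HBM, and 0.62 for SLC4A1, 0.39 for EPB42 and 0.49 for GYPC. Without piglet 211, a male, the values over 17 males were 0.70, 0.62, 0.69 and 0.62 for the first 4 genes, 0.35 for SLC4A1, 0.39 for EPB42 and 0.53 for GYPC. The difference between the sexes was not tested.

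The red cell genes were not in a fixed ratio. ALAS2 gave 0.036 counts per count of HBB in piglet 202 and 0.0562 in piglet 213, and 0.239 to 1.23 in the 32 piglets other than 202, 210, 211 and 213. AHSP over HBB was 0.052 in piglet 202 and 0.0787 in piglet 213, against 0.0755 to 0.396 in those 32. ALAS2 over HBB in piglets 202 and 213, and AHSP over HBB in piglet 202, thus lay below the range of the 32, and AHSP over HBB in piglet 213 lay inside it.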
